A study of Mus musculus with 12 samples.

Results

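The genes described here are the nuclear genes of 4 enzyme complexes of the inner mitochondrial membrane: complexes I, II and III of the respiratory chain, and complex V, the ATP synthase. They were taken by name, as protein-coding genes whose symbols begin with Nduf, Uqcr, Uqcc or Atp5, or are Sdha, Sdhb, Sdhc, Sdhd or Cyc1, with at least 1 RPKM (a read count divided by exon length and by library size) in at least 3 of 12 libraries. Of 28948 genes listed and 11245 that passed the same filter, 78 were members. In all, 89 symbols matched and 79 of these were protein-coding. Ndufa4l2 was the 1 protein-coding match that stayed below the filter, at 0.0475 to 0.323 RPKM. Ndufb1-ps, which the annotation holds as a noncoding RNA although it was listed at 49.3 to 61.9 RPKM, was no member, nor were 9 processed pseudogenes.

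RNA was sequenced from 3T3-L1 adipocytes, fat cells made in culture from a fibroblast-like mouse line (Swiss strain), in 4 groups of 3 libraries. Ectopic overexpression of the transcription factor Foxp1 (constituent, per the labels) had an empty vector as its control, and knockdown of Foxp1 by a short hairpin RNA had a scrambled hairpin. All groups went through the same differentiation in dexamethasone, isobutylmethylxanthine, insulin and troglitazone. The labels give neither the construct's promoter nor the day of harvest, and do not say whether replicates are separate cultures, so the p-values measure only the spread between these libraries, which may be technical.

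The complexes couple electron transport to ATP production. Complex I takes electrons from NADH and complex II, the succinate dehydrogenase of the citric acid cycle, takes them from succinate; both hand them to coenzyme Q. Complex III passes them on to cytochrome c, and the proton gradient built on the way drives the rotary ATP synthase. Each complex but II also contains subunits made from the mitochondrial genome. Subunits are put together with the help of assembly factors, proteins that are absent from the finished enzyme. Mature fat cells use the chain for ATP and for the citrate that leaves mitochondria to build fatty acids.

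By role the members comprised 7 core subunits of complex I, which carry its cofactors and are conserved from bacteria, 29 accessory subunits of complex I, 4 subunits of complex II, 9 of complex III and 16 of complex V. To these 65 subunits came 8 assembly factors of complex I (the Ndufaf genes) and 3 of complex III (the Uqcc genes). The remaining 2 were Ndufa4, now counted with cytochrome c oxidase despite its name, and Atp5s, named after a coupling factor of the ATP synthase. They lay on 19 chromosomes with at most 8 on any of them.

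Reads were recovered from the RPKM values and the annotated exon lengths. So reckoned, the 12 libraries held 35196318 to 38389454 reads in genes, and a member drew 266 to 146475 reads per library (median 4969). Foxp1 followed the labels in every library, at 5.78, 7.16 and 6.75 RPKM with overexpression against 1.83, 1.76 and 1.82 with the empty vector, and at 1.11, 1.14 and 1.08 with knockdown against 2.24, 2.20 and 2.11 with the scrambled hairpin. The overexpression libraries were spread out among the members, with replicates 1 and 3 about equally far from the middle. On the log2 scale the median member lay 0.109 above its group's mean in replicate 1, 0.008 above it in replicate 2 and 0.113 below it in replicate 3. The share of reads from the mitochondrial genome was 10.9% ± 1.91 with overexpression and 9.04% ± 0.384 with the empty vector, and 6.34% ± 0.434 with knockdown and 5.37% ± 0.495 with the scrambled hairpin (SD, n = 3 each), highest in overexpression replicate 3 at 13.11%. Of 10 markers of mature fat cells 9 were tested (Lep was below the filter), of which 0 rose and 9 fell with overexpression and 5 rose and 3 fell with knockdown, and the summed level was 3633 to 3915 RPKM with overexpression, 9243 to 9453 with the empty vector, 9344 to 10031 with knockdown and 6725 to 6979 with the scrambled hairpin. Markers of endothelial cells were near 0, with 0 of 5 tested and sums of 0.208 to 0.583 RPKM. Of macrophage markers 2 of 6 were tested (sums of 4.51 to 7.54 RPKM), with Ptprc, Adgre1, Csf1r and Itgam below the filter. Of the 2 tested, 0 rose and 1 fell with overexpression, and 0 rose and 1 fell with knockdown. Of 7 skeletal muscle markers 4 were analysed here and 1 was tested (sums of 36.2 to 42.2 RPKM with overexpression, 12.5 to 13.7 with the empty vector, 1.48 to 1.87 with knockdown and 1.03 to 1.11 with the scrambled hairpin). The muscle marker tested rose with overexpression and with knockdown. Of 5 markers of undifferentiated preadipocytes 4 were tested (sums of 104 to 109 RPKM with overexpression, 96.9 to 108 with the empty vector, 113 to 128 with knockdown and 131 to 149 with the scrambled hairpin). Of these 4, 2 rose and 2 fell with overexpression, and 0 rose and 2 fell with knockdown. The part of these differences in the results below was not tested, and in bulk RNA fewer cells of a type and less RNA per cell cannot be told apart.

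Levels differed by role. Subunits had a median of 103 RPKM over the 12 libraries and assembly factors one of 11.4. Among subunits the class medians were 205 RPKM for complex III, 131 for complex II, 124 for the core of complex I, 91.2 for complex V and 83.5 for the accessory subunits of complex I. The highest member was Atp5b, the catalytic beta subunit of the ATP synthase, at 768 RPKM, followed by Atp5a1, its alpha partner, at 474 and Uqcr10, a small subunit of complex III, at 405. Subunits that occur in equal numbers in the enzyme differed in RPKM: within complex I, Ndufa1 was at 237 RPKM and Ndufb2 at 4.97. RPKM divides by the annotated exon length, which is 419 bases for Ndufa1 and 5628 for Ndufb2. Their reads per library were closer, at 2992 to 4903 for Ndufa1 and 959 to 1256 for Ndufb2. Exons of Ndufb2 also overlap those of Gm42420 on the same strand. Assembly factors ran from 3.67 RPKM for Ndufaf2, which acts late in the building of complex I, to 85.2 for Uqcc2, which guides the making of cytochrome b. The c ring of the ATP synthase is encoded by 3 genes with the same mature protein, and here Atp5g3 stood at 306 RPKM, Atp5g1 at 14.2 and Atp5g2 at 4.98. Summed over all members, the level was 10235 ± 812 RPKM with overexpression and 9248 ± 88.7 with the empty vector, and 8384 ± 374 with knockdown and 8450.2 ± 113 with the scrambled hairpin (SD, n = 3 each). As a share of the reads this was 2.09% with overexpression and 1.90% with the empty vector, and 1.66% with knockdown and 1.68% with the scrambled hairpin.

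**Figure D1:**
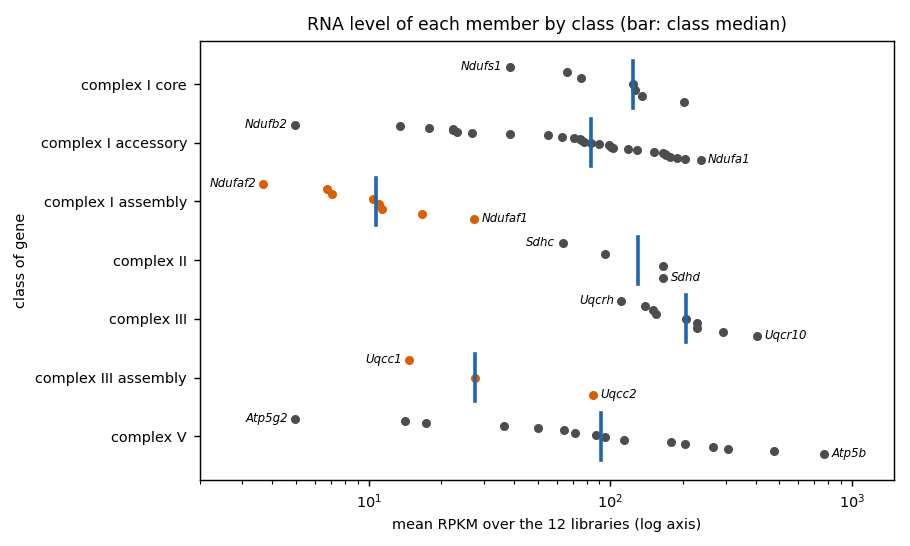
Mean RPKM over the 12 libraries (horizontal log axis) of each subunit and assembly factor, 1 point a gene, by class (vertical axis), with orange points for assembly factors, blue bars for class medians and names for lowest and highest genes of a class. Assembly factors of complex I lie between 3.67 and 27.4 RPKM, and the median of the complex III subunits is 205 RPKM.

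**Figure D2:**
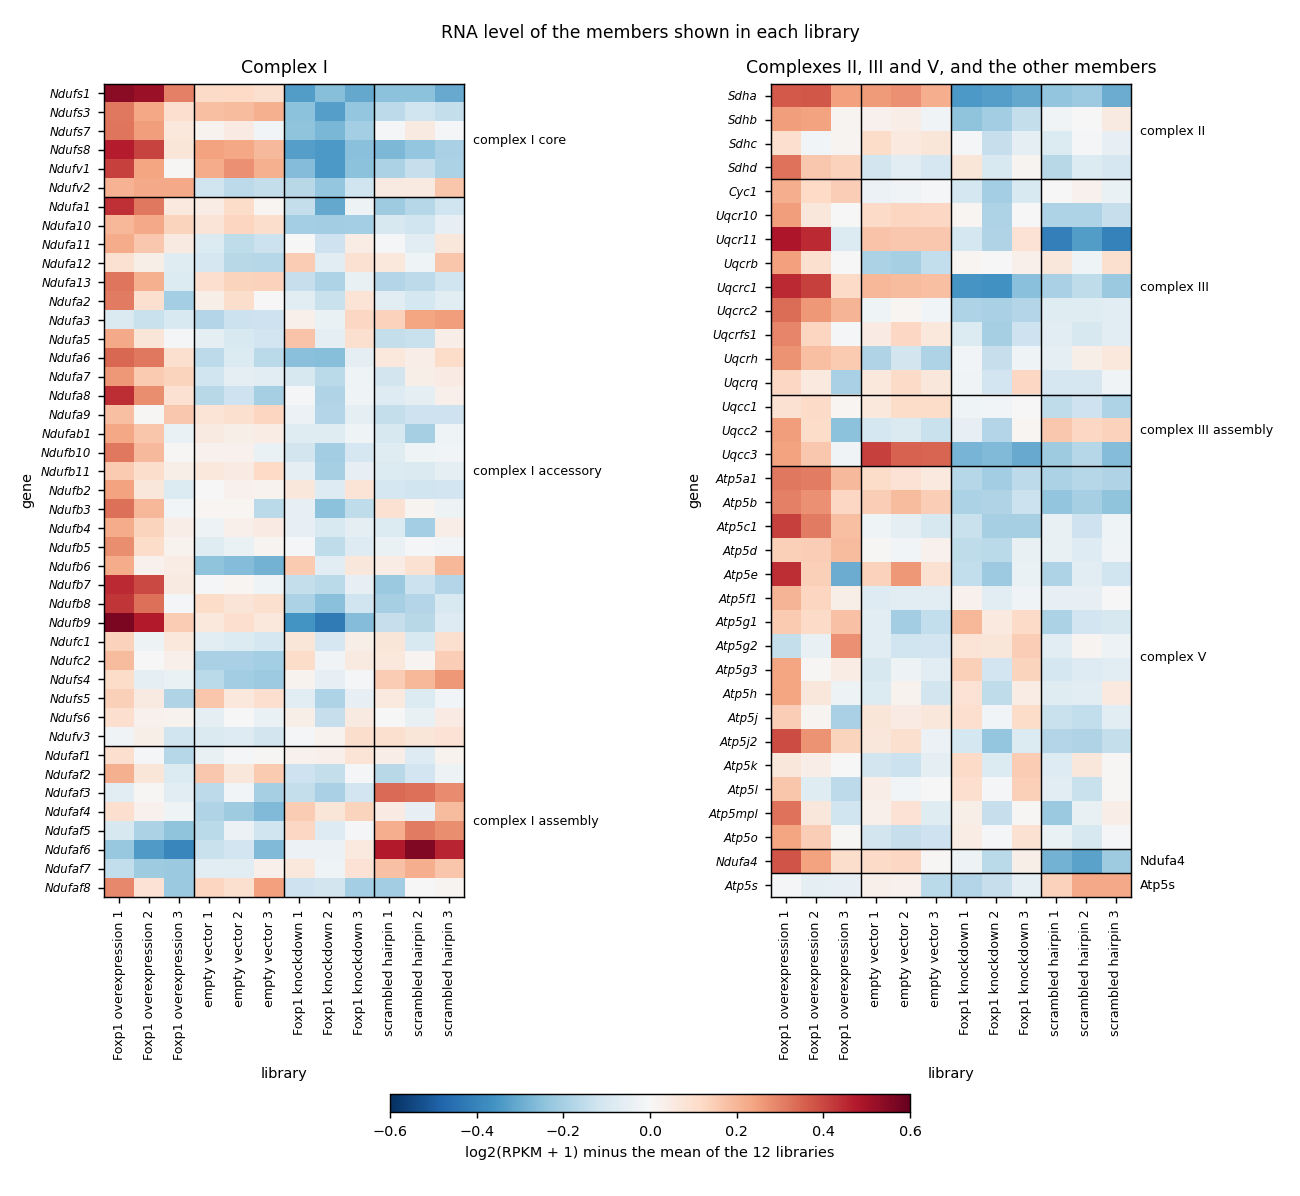
The log2(RPKM + 1) of the members shown in each of the 12 libraries, as the difference from that gene's mean over the libraries (colour scale), with genes grouped by class and libraries by group. Overexpression replicates 1 and 2 are red for most subunits and replicate 3 is paler, Ndufaf3 and Ndufaf6 are highest with the scrambled hairpin, and Uqcc3 is highest with the empty vector.

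Overexpression was set against the empty vector to ask how these genes stand when Foxp1 is raised. Of 65 subunit genes 29 rose, 0 fell and 36 did not pass, with risen genes in each of the 4 complexes. The subunits' median log2 fold change was 0.16, 8 of the 65 changes were negative, and the largest rise was that of Ndufa8 at 0.43. Assembly factors went both ways: of 11, Ndufaf4 rose, Ndufaf6, Ndufaf7 and Uqcc3 fell, and their median was -0.06. Of all 78 members 30 rose and 3 fell (median 0.14). Over all 11245 genes 51.4% passed the same test (limma on log2(RPKM + 1), Benjamini-Hochberg adjusted p under 0.05), 31.0% upward and 20.3% downward, with a median of 0.04. The 33 members past the threshold are no larger a share than that background, so the number of calls is not a result about the members; the counts in each direction stand beside those of all genes without a test between them. Groups did not overlap in 33 members upward and 2 downward, against 57.5% of all genes, 34.4% upward and 23.1% downward. Leaving out overexpression replicate 3 gave 48 rises and 2 falls, with medians of 0.21 for subunits and 0.02 for assembly factors. In that fit 4020 of all 11245 genes rose and 2201 fell, with a median of 0.06. The 48 were the most rises among the members with any single library left out. Leaving out some other libraries gave fewer than the 30 of the full fit. With each library rescaled to its reads outside the mitochondrial genome, 40 rose and 2 fell. Of all genes 4125 then rose and 2102 fell (median 0.07). Scaling to TPM, where each library has the same sum, ended the rises of Ndufa5, Ndufb3, Ndufb5, Ndufb10, Ndufs7, Sdhb, Atp5d and Atp5j2. Median-ratio scaling ended those of Ndufa5, Ndufb3, Ndufb5, Ndufb10 and Sdhb. Of all genes 2426 rose and 2566 fell with TPM (median 0.00), and 2947 and 2791 with median-ratio scaling (median 0.01).

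In the core of complex I, 3 of 7 subunits rose and 0 fell (median 0.09). Ndufv2 (chromosome 17, 66078638 to 66101559, minus strand, GRCm38), which carries an iron-sulfur cluster beside the NADH site, had 155, 157 and 157 RPKM with overexpression against 123, 120.1 and 121 with the empty vector. The libraries of each group differed little and the groups were far apart (log2 fold change 0.36, SE 0.040, adjusted p = 9e-06). Ndufs1 (chromosome 1, 63143596 to 63176833, minus strand), the largest subunit with several iron-sulfur clusters, had 54.9, 54.0 and 46.5 RPKM with overexpression against 40.7, 40.8 and 40.1 with the empty vector (0.34, adjusted p = 0.00018). Ndufs7 (chromosome 10, 80249121 to 80256794, plus strand), whose cluster hands electrons to coenzyme Q, had 94.2, 89.7 and 78.6 RPKM with overexpression against 76.2, 77.9 and 74.2 with the empty vector, with replicate 3 closest to the controls (0.20, adjusted p = 0.0117, or 0.108 after scaling to TPM, where each library has the same sum). Changes that did not pass were 0.09 (Ndufs8), 0.02 (Ndufs3) and -0.02 (Ndufv1, which binds NADH and the flavin), at adjusted p = 0.352 to 0.826. Without overexpression replicate 3, Ndufs8 passed (0.21, adjusted p = 0.000738).

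Of 29 accessory subunits of complex I, which surround the core, 13 rose and 0 fell (median 0.16). Ndufa8 (chromosome 2, 36036326 to 36049406, minus strand), on the intermembrane face, had 205, 183 and 160.4 RPKM with overexpression against 134, 138 and 131 with the empty vector (log2 fold change 0.43, SE 0.075, adjusted p = 0.000438). All 3 overexpression libraries were above the controls, with a spread of 22.3 RPKM (SD) that was wider than the 3.53 of the controls. Ndufa6 (chromosome 15, 82350140 to 82354322, minus strand), which docks the acyl carrier protein Ndufab1 on the matrix arm, had 95, 93.1 and 79.7 RPKM against 66.8, 70.5 and 66.5 with the empty vector (0.39, adjusted p = 0.00046). Of the extremes in level, Ndufa1 had a change of 0.22 (adjusted p = 0.0553, or 0.00218 without overexpression replicate 3) and Ndufb2 one of 0.06 (adjusted p = 0.489). Ndufb6 (0.36, adjusted p = 0.000605) and Ndufc2 (0.27, adjusted p = 0.00117), both of the membrane arm, also rose without overlap. By position, 7 of 16 subunits of the matrix arm rose (median 0.13) and 9 of 19 of the membrane arm (median 0.17). The rises of Ndufa5 (adjusted p = 0.0485), Ndufb3 (0.0426), Ndufb10 (0.0497) and Ndufb5 (0.0291) stood near the threshold. Each ended when overexpression replicate 1 was left out, at adjusted p = 0.189, 0.172, 0.203 and 0.115 in that order of genes, and without several other libraries.

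In complex II, Sdhd, an anchor in the membrane that also helps bind coenzyme Q, rose, with 207, 185 and 182 RPKM with overexpression against 153, 158 and 154 with the empty vector (log2 fold change 0.30, adjusted p = 0.000564). Sdhb, the iron-sulfur subunit, passed narrowly, with 113, 112 and 95.7 RPKM against 96.5, 97.2 and 93.2, where replicate 3 lay within the range of the controls (0.16, adjusted p = 0.0376). That call ended without overexpression replicate 1 (0.137) or 2 (0.138), without empty vector replicate 1 (0.0715), 2 (0.0627) or 3 (0.115), and with TPM (0.246). Sdha, the flavoprotein that oxidises succinate (0.08, adjusted p = 0.128, or 0.0101 without overexpression replicate 3), and the anchor Sdhc (-0.05, adjusted p = 0.39) did not pass.

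Of 9 complex III subunits 4 rose and 0 fell (median 0.14). Uqcrh, the acidic hinge protein beside cytochrome c1, had 133, 125 and 123 RPKM with overexpression against 97.0, 102 and 96.7 with the empty vector (log2 fold change 0.36, SE 0.048, adjusted p = 4.82e-05). Uqcrc2 (chromosome 7, 120635176 to 120659524, plus strand), a core protein of the matrix side, had 194, 184 and 177 RPKM against 151, 155 and 152 (0.28, SE 0.037, adjusted p = 4.74e-05). The groups did not overlap in either gene. Uqcrb rose by 0.30 (adjusted p = 0.000741) and Cyc1, the cytochrome c1 gene, by 0.18 (adjusted p = 0.00258). The Rieske iron-sulfur protein gene Uqcrfs1 had a change of 0.06 (adjusted p = 0.455, or 0.0398 without overexpression replicate 3), and Uqcr10, the highest of the complex, one of -0.01 (adjusted p = 0.869). Uqcr11, a small subunit in the membrane, had 402, 391 and 271 RPKM with overexpression against 323, 320.2 and 321 with the empty vector: replicates 1 and 2 were above the controls and replicate 3 below them (0.12, adjusted p = 0.426, or 0.30 and 0.00138 without replicate 3).

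Of 16 ATP synthase subunits 7 rose and 0 fell (median 0.15). Atp5c1 (chromosome 2, 10056016 to 10080510, minus strand), the gamma subunit that turns as the central shaft, had 267, 249.9 and 228 RPKM with overexpression against 197, 193 and 188 with the empty vector (log2 fold change 0.36, SE 0.054, adjusted p = 0.000132). Atp5a1 rose by 0.19 (adjusted p = 0.00196) and Atp5o, the OSCP subunit that ties the stalk to the head, by 0.26 (adjusted p = 0.00139). Atp5b, the most abundant member, had a change of 0.07 (adjusted p = 0.233, or 0.00969 without overexpression replicate 3). In the c ring, Atp5g1 had 15.9, 15.4 and 16.1 RPKM with overexpression against 13.5, 12.1 and 12.7 (0.29, adjusted p = 0.000311), while the far more abundant Atp5g3 (0.16, adjusted p = 0.0812, or 0.03 without knockdown replicate 2) and Atp5g2 (0.13, adjusted p = 0.206, or 0.0348 without overexpression replicate 1) did not pass.

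Among assembly factors, Ndufaf4, which helps build the part of complex I that binds coenzyme Q, was the 1 that rose, with 7.22, 6.80 and 6.53 RPKM with overexpression against 5.77, 5.62 and 5.38 with the empty vector (log2 fold change 0.25, adjusted p = 0.00284). Its partner Ndufaf3 had a change of 0.08 (adjusted p = 0.183, or 0.0269 without empty vector replicate 2). Uqcc3, which stabilises new cytochrome b in complex III, fell, with 32.1, 30.4 and 26.6 RPKM against 36.2, 34.8 and 34.7 (-0.24, adjusted p = 0.00311). Ndufaf7, a methyltransferase needed to build complex I in human cells, fell by 0.17 on the log2 scale (adjusted p = 0.00511). Ndufaf6 passed at -0.15 (adjusted p = 0.0345), a call that ended without overexpression replicate 2 (0.0896) or 3 (0.102) and without empty vector replicate 1 (0.109) or 2 (0.125). The other 6 did not pass, among them Ndufaf1 (-0.01, adjusted p = 0.914), which helps join the membrane arm, Ndufaf2 (-0.06, adjusted p = 0.50), and Uqcc2, with 101, 91.6 and 71.3 RPKM with overexpression against 78.8, 79.8 and 77.2 with the empty vector (0.14, adjusted p = 0.227, or 0.29 and 0.000758 without overexpression replicate 3). The 11 changes ran from -0.24 to 0.25, against -0.10 to 0.43 for the 65 subunits.

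**Figure D3:**
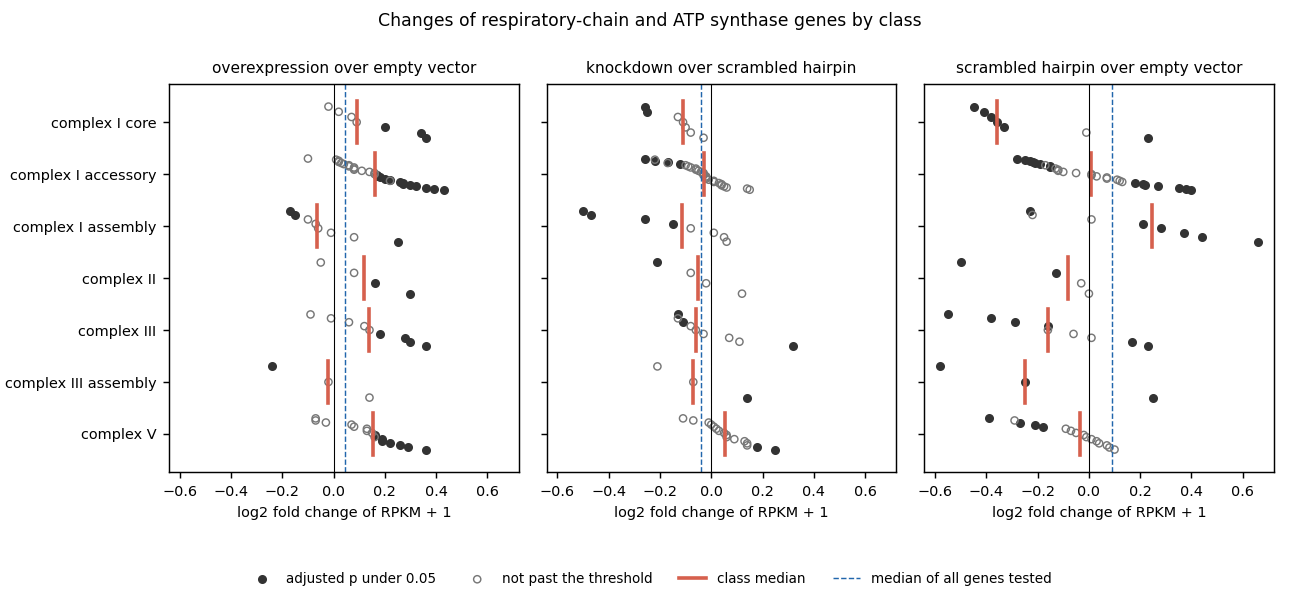
The log2 fold change of RPKM + 1 (horizontal axis) of each subunit and assembly factor by class (vertical axis), for overexpression over empty vector, knockdown over scrambled hairpin and scrambled hairpin over empty vector. Filled points passed adjusted p under 0.05, red bars are class medians and the dashed line is the median of all 11245 genes tested; with overexpression no subunit passed downward, and between the controls the core of complex I has a median of -0.36 and its assembly factors one of 0.25.

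Stretches before the start sites of risen genes are shown because genes of the respiratory chain are known targets of nuclear respiratory factor 1 (NRF1), whose sites lie close to the start. RefSeq promoters of GRCm38.p6 were matched for 66 of 78 members. Each start site had a window of 300 bases, 250 before and 50 after it, and some members had several. In these windows 7 motifs were searched on both strands. The NRF1 core CGCANGCG was in a window of 28 of 66 members (42.4%), in 24 of 54 subunits and 4 of 10 assembly factors. Of 8362 tested genes matched 21.1% held it, and of all 27025 genes with a promoter 9.22%. By response, 11 of 24 risen members held it, 0 of 2 that fell, and 17 of 40 that did not pass. Below are the 120 bases before a RefSeq start site of 8 risen members with that core wholly inside them. Where a member had several start sites, the first whose 120 bases held a core was taken, so the core is there by choice. Ndufv2 and Atp5g1, which passed in both comparisons and hold none there, are shown as well. The stretch of Ndufa5, and parts of those of Ndufa7, Ndufa8, Atp5c1 and Ndufb10, lie inside the annotated span of the gene. Capitals mark motif matches on either strand: the NRF1 core, and besides it a YY1 core (AANATGGCG) in Ndufa7, an ETS core (CCGGAAG, printed from its other strand) in Sdhd and an E-box (CACGTG) in Atp5g1.

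Ndufa8, chr2:36049339-36049458, minus strand: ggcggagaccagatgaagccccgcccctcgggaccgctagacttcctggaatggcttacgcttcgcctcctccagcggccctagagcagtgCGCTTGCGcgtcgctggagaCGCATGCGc
Atp5c1, chr2:10080433-10080552, minus strand: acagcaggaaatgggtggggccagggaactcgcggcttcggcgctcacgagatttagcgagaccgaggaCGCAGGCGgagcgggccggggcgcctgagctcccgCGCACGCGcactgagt
Ndufa11, chr17:56717642-56717761, plus strand: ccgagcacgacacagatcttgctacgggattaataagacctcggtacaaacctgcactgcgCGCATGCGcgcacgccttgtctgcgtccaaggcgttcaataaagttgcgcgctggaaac
Ndufa5, chr6:24527691-24527810, minus strand: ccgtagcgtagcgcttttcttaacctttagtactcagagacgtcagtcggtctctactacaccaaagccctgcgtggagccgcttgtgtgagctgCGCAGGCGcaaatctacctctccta
Ndufa7, chr17:33824525-33824644, plus strand: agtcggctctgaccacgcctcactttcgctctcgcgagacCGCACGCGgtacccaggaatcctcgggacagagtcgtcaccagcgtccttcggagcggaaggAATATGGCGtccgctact
Ndufaf4, chr4:24897963-24898082, plus strand: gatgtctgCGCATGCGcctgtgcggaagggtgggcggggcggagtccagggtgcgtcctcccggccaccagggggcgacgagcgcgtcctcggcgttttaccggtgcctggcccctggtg
Ndufb10, chr17:24724424-24724543, minus strand: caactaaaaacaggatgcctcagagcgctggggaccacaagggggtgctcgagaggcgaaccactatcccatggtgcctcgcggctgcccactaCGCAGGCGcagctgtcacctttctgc
Sdhd, chr9:50603850-50603969, minus strand: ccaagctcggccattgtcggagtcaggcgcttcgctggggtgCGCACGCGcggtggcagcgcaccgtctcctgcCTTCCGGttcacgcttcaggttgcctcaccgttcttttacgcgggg
Ndufv2, chr17:66101560-66101679, minus strand: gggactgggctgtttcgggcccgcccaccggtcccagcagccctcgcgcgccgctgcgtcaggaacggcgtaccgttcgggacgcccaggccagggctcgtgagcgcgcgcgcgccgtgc
Atp5g1, chr11:96075632-96075751, minus strand: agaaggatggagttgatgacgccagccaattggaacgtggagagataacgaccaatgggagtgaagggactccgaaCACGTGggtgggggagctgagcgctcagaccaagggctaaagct

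Among the other motifs, the YY1 core was in 16.7% of members and 6.83% of tested genes, the ERR element TCAAGGTCA in 3.03% and 0.299% (2 members, Atp5g3 and Sdhd), the cyclic AMP response element TGACGTCA in 6.06% and 3.59%, the ETS core in 22.7% and 22.0%, and the E-box in 10.6% and 12.3%. The forkhead core TGTTTAC, the kind of site that Foxp1 and its relatives bind, was found in 1 of 66 members, Ndufaf1, against 2.95% of tested genes. These are letter matches in short windows and say nothing of binding.

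Knockdown was set against the scrambled hairpin to ask how the same genes stand when Foxp1 is lowered. The members did not move as a block: 5 of 78 rose and 14 fell, with a median log2 fold change of -0.03. Over all genes 49.7% passed, 18.7% upward and 31.0% downward, with a median of -0.04. The 19 of 78 members past the threshold were no larger a share than this background, and the medians lay close together. Of 65 subunits 3 rose and 9 fell (median -0.03). Of 11 assembly factors 1 rose and 4 fell (median -0.08), and the largest falls of all members, those of Ndufaf6 and Ndufaf3, were among these. Groups did not overlap in 8 members upward and 25 downward, against 59.6% of all genes, 23.1% upward and 36.5% downward. The balance depended on the scaling and on single libraries. Median-ratio scaling gave 13 rises and 9 falls (median 0.02 over all members), against 2783 and 2791 of all genes (median 0.00). Leaving out knockdown replicate 2, whose median member lay 0.067 below its group's mean, gave 10 and 12 (median 0.01). Of all genes 2019 then rose and 3331 fell (median -0.04). Leaving out overexpression replicate 3, which enters only through the shared estimate of the spread, gave 7 rises and 22 falls. In that fit 2372 of all genes rose and 3809 fell.

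Complex I held 6 of the 9 falls among subunits, with 0 of its 36 subunits higher. Over all genes 31.0% fell and 18.7% rose, so neither these falls nor those of the core are more than the background. All 7 core genes had negative changes (median -0.11), and 2 passed. Ndufv2 had 119, 114 and 123 RPKM with knockdown against 139, 139 and 150.2 with the scrambled hairpin, without overlap (log2 fold change -0.26, SE 0.040, adjusted p = 0.000188). Ndufs7 had 63.4, 61.9 and 65.2 RPKM against 74.6, 78 and 74.7, again without overlap (-0.25, SE 0.056, adjusted p = 0.00279). Ndufs3 missed the threshold at -0.13 (adjusted p = 0.0528) and passed without overexpression replicate 1 (0.0236) or 3 (0.00851). Ndufv1 (-0.11), Ndufs8 (-0.08) and Ndufs1 (-0.03) did not pass, at adjusted p = 0.254 to 0.634.

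Accessory subunits of complex I had 4 of 29 lower and 0 higher (median -0.03, or 0.02 with median-ratio scaling, where 2 accessory subunits rose and 2 fell). Ndufa6 had 62.5, 62.3 and 71.6 RPKM with knockdown against 77.9, 76.7 and 80.7 with the scrambled hairpin (log2 fold change -0.26, adjusted p = 0.00715). Ndufs4, an accessory subunit of the NADH-binding part whose loss in mice causes a fatal brain disease, had 27.0, 25.7 and 26.4 RPKM against 29.7, 30.7 and 32.1 (-0.22, adjusted p = 0.00212). In both genes every knockdown library was below every control library. Ndufa3 fell by 0.17 on the log2 scale (adjusted p = 0.00816, or 0.0579 with median-ratio scaling) and Ndufa10 by 0.12 (adjusted p = 0.0143, or 0.0605 without scrambled hairpin replicate 3 and 0.112 with median-ratio scaling).

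In complex II, Sdhb had 80.0, 81.7 and 85.7 RPKM with knockdown against 93.4, 94.9 and 98.4 with the scrambled hairpin, without overlap (log2 fold change -0.21, SE 0.058, adjusted p = 0.00926). Sdhd (0.12, adjusted p = 0.0849), Sdha (-0.08, adjusted p = 0.141) and Sdhc (-0.02, adjusted p = 0.681) did not pass, although Sdhd did without knockdown replicate 2 (0.031) or overexpression replicate 1 (0.0392) and Sdha without overexpression replicate 3 (0.0488).

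Complex III split. Cyc1 fell by 0.13 (adjusted p = 0.0218) and Uqcrc2 by 0.11 (adjusted p = 0.0219) on the log2 scale. Both calls were fragile: that of Cyc1 ended without scrambled hairpin replicate 1 (0.0605) or 2 (0.0782) or knockdown replicate 2 (0.0863), that of Uqcrc2 without scrambled hairpin replicate 1 (0.0597) or 3 (0.0561) or knockdown replicate 2 (0.0575), and both with median-ratio scaling (0.166 for Cyc1 and 0.142 for Uqcrc2). Uqcrfs1 did not pass (-0.06, adjusted p = 0.48). Uqcr11 was the 1 that rose, with 266, 253 and 304 RPKM with knockdown against 215, 227 and 216 with the scrambled hairpin (0.32, SE 0.12, adjusted p = 0.0438). Its standard error was the widest of the complex, and the call ended when any 1 of 8 libraries was left out (adjusted p = 0.0568 to 0.162) and with TPM (0.093).

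In the ATP synthase 2 of 16 subunits rose and 0 fell (median 0.05). Atp5g1 had 16.4, 14.8 and 15.4 RPKM with knockdown against 12.3, 13.0 and 13.2 with the scrambled hairpin, without overlap (log2 fold change 0.25, SE 0.049, adjusted p = 0.00103). Atp5j, the F6 subunit of the outer stalk, passed at 0.18 (adjusted p = 0.0464), a call that ended when any 1 of 9 libraries was left out (0.055 to 0.134) and with TPM (0.132). Atp5g3 (0.14, adjusted p = 0.137, or 0.0124 without knockdown replicate 2), Atp5g2 (0.13, adjusted p = 0.216, or 0.0191 without overexpression replicate 3) and Atp5b (0.06, adjusted p = 0.324, or 0.0297 with median-ratio scaling) did not pass.

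Of the assembly factors of complex I, 4 of 8 fell and 0 rose (median -0.11). Ndufaf6 (chromosome 4, 11051045 to 11076205, minus strand), needed early in the building of complex I, had 9.87, 9.88 and 10.6 RPKM with knockdown against 14.5, 15.4 and 14.3 with the scrambled hairpin, with means in the ratio 0.688 (log2 fold change -0.50, SE 0.054, adjusted p = 1.56e-05). Ndufaf3 (chromosome 9, 108565537 to 108567434, minus strand) had 10.1, 9.69 and 10.3 RPKM against 14.5, 14.4 and 13.9, a ratio of 0.703 (-0.47, SE 0.047, adjusted p = 9.09e-06). In both genes the scrambled hairpin libraries also lay above those of the empty vector, at 9.18, 9.31 and 8.29 RPKM for Ndufaf6 and 10.0, 11.1 and 9.66 for Ndufaf3, so the knockdown values lay nearer to those of the empty vector than to those of their own control. Ndufaf5, which hydroxylates Ndufs7 in human cells, fell by 0.26 (adjusted p = 0.00286) and Ndufaf7 by 0.15 (adjusted p = 0.0107, or 0.0697 with median-ratio scaling) on the log2 scale. Of the complex III factors, Uqcc1 rose, with 14.4, 14.5 and 14.7 RPKM with knockdown against 13.1, 13.4 and 12.8 with the scrambled hairpin (0.14, adjusted p = 0.00572, or 0.0897 with TPM). Of the remaining 2 members, Atp5s fell by 0.32 (adjusted p = 0.000475), and Ndufa4, at 148, 135 and 155 RPKM with knockdown against 124, 121 and 130.3, passed upward (0.21, adjusted p = 0.0218), a call that ended without scrambled hairpin replicate 1 (0.0604) or 2 (0.0741) or knockdown replicate 1 (0.0627) or 3 (0.0915), and with TPM (0.0612).

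**Figure D4:**
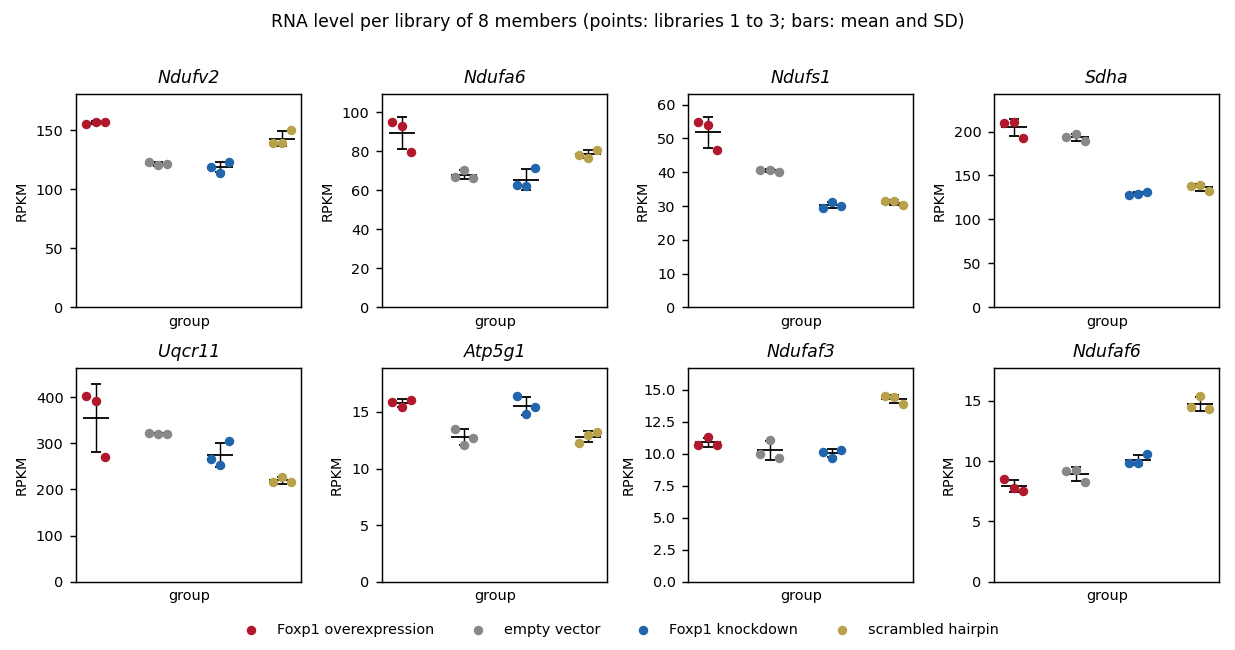
RPKM (vertical axis, from 0) of 8 members in each library, with points for libraries 1 to 3 of each group and bars for the mean and SD (n = 3). Ndufv2 and Ndufa6 are higher with overexpression than with the empty vector and lower with knockdown than with the scrambled hairpin, Sdha and Ndufs1 are lower in both hairpin groups than in both vector groups, and Ndufaf3 and Ndufaf6 are highest with the scrambled hairpin.

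Both responses were then set against each other. They share no control libraries. Of 78 members 7 rose with overexpression and fell with knockdown: Ndufv2, Ndufs7, Ndufa6, Ndufs4, Sdhb, Cyc1 and Uqcrc2. Over all genes 12.1% had this pattern, so the count is not above the background. It also rests on calls that ended in some alternatives: the rise of Sdhb passed in 15 of 25 settings, and the falls of Cyc1 and Uqcrc2 in 21 of 25 each. In Ndufv2 (0.23), Ndufa6 (0.21) and Ndufs4 (0.40) the scrambled hairpin was itself above the empty vector, at adjusted p = 0.000195, 0.0164 and 7.04e-06. Mean RPKM with knockdown was 119, 65.5 and 26.4 in these genes, and 121, 67.9 and 23.1 with the empty vector. In Ndufs7, Sdhb, Cyc1 and Uqcrc2 the difference between the controls did not pass. The reverse pattern was seen in 0 members, against 6.00% of all genes. Atp5g1 rose in both (4.72% of all genes), Ndufaf6 and Ndufaf7 fell in both (5.79% of all genes), and 36 members passed in neither. Across the 78 members the responses had a Pearson r of 0.02, against -0.20 across all 11245 genes. Genes are not independent replicates and share the libraries, so these are descriptions.

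A direct test of the overexpression response minus the knockdown response passed upward in 31 members and downward in 2 (median 0.17), against 54.9% of all genes, 34.6% upward and 20.3% downward, with a median of 0.08. Without overexpression replicate 3 it passed upward in 45 and downward in 2, against 4401 and 2277 of all 11245 genes (median 0.10). Ndufv2 had the smallest adjusted p, with a difference of 0.62 (SE 0.056, adjusted p = 1.6e-06), and Ndufa6 had the largest, 0.65 (SE 0.096, adjusted p = 0.000115). Ndufs4 (0.42, adjusted p = 0.000184), Ndufs7 (0.45, adjusted p = 0.000469), Uqcrc2 (0.39, adjusted p = 4.72e-05), Uqcrh (0.44, adjusted p = 0.000158) and Atp5c1 (0.47, adjusted p = 0.000238) differed as well. Atp5d, the delta subunit of the shaft, and Atp5f1, the b subunit of the outer stalk, passed at 0.23 (adjusted p = 0.00428) and 0.18 (adjusted p = 0.0263), that of Atp5f1 ending when any 1 of 4 libraries was left out (0.054 to 0.0608). With median-ratio scaling the upward calls of Atp5d (0.099), Atp5f1 (0.202) and Atp5a1 (0.143) ended, which leaves Atp5c1 of the 4 in complex V. By class, 16 of 36 complex I subunits passed upward, 2 of 4 of complex II (Sdhb at 0.37, adjusted p = 0.00221, and Sdha at 0.16, adjusted p = 0.0379, which ended when any 1 of 9 libraries was left out, at 0.0512 to 0.0911), 5 of 9 of complex III and 4 of 16 of complex V, with 1 of complex V, Atp5j, downward (-0.25, adjusted p = 0.0446, or 0.0533 to 0.111 with TPM, with no filter, or when any 1 of 8 libraries was left out). Class medians of this difference were 0.17 for the core of complex I and 0.20 for its accessory subunits. They were 0.17 for complex II, 0.27 for complex III and 0.05 for complex V. With median-ratio scaling the complex V median was -0.04, while the median over all genes went from 0.08 to 0.00. That scaling applies to every class. The c ring genes had differences of 0.04 (Atp5g1), 0.02 (Atp5g3) and 0.00 (Atp5g2), at adjusted p = 0.666 to 0.989. Ndufaf3 (0.55, adjusted p = 2.25e-05) and Ndufaf6 (0.35, adjusted p = 0.00216) also passed upward. With overexpression, however, Ndufaf3 did not pass (0.08), and Ndufaf6 fell in both comparisons (-0.15 and -0.50). The scrambled hairpin, which enters this difference with a plus sign, was above the empty vector in both genes (0.44 and 0.66). For Uqcc1 the difference was negative (-0.17, adjusted p = 0.0146).

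**Figure D5:**
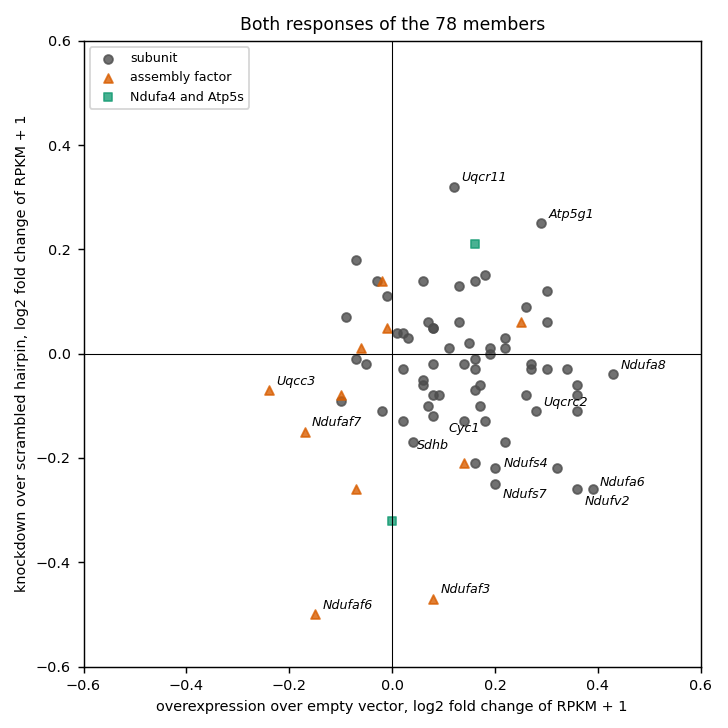
The log2 fold change of RPKM + 1 with overexpression (horizontal axis, over empty vector) and with knockdown (vertical axis, over scrambled hairpin) of each of the 78 members, with circles for subunits, triangles for assembly factors and squares for Ndufa4 and Atp5s. The 7 genes that rose with overexpression and fell with knockdown lie at the lower right, Atp5g1 at the upper right, and Ndufaf3 and Ndufaf6 at the bottom.

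The 2 control groups differed from each other in more members than either Foxp1 group from its own control. Of 78 members 17 were higher and 27 lower with the scrambled hairpin than with the empty vector (median -0.05), against 71.8% of all genes, 44.8% upward and 27.0% downward, with a median of 0.09. Groups did not overlap in 22 members upward and 36 downward, against 78.9% of all genes, 48.9% upward and 30.1% downward. This comparison shares its libraries with both others, and the construct and anything else that differed between the vector and hairpin experiments cannot be told apart. With TPM the members' median was 0.03, and 23 were higher and 16 lower, while the median over all genes was 0.16; with median-ratio scaling 11 were higher and 42 lower at a median of -0.16, while the median over all genes was 0.00.

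The classes had unlike medians here. In the core of complex I 5 of 7 were lower and 1 higher (median -0.36), and in its assembly factors 1 of 8 was lower and 5 higher (median 0.25). Sdha had 138, 139.6 and 132 RPKM with the scrambled hairpin against 194, 197 and 189 with the empty vector (log2 fold change -0.50, SE 0.041, adjusted p = 2.91e-07). Ndufs8 (-0.45), Ndufv1 (-0.41), Ndufs1 (-0.38) and Ndufs3 (-0.33) were lower too, and Ndufv2 was the 1 core gene that was higher (0.23, adjusted p = 0.000195). Uqcr11 (-0.55), Uqcrc1 (-0.38), Uqcc3 (-0.58), Atp5b (-0.39) and Atp5j2, the f subunit of the ATP synthase (-0.21), were lower, and Ndufaf6 (0.66), Ndufaf3 (0.44), Ndufs4 (0.40), Ndufb6 (0.38) and Ndufaf5 (0.37) higher. The summed level of the complex I core was 635 ± 16.9 RPKM with knockdown and 704 ± 7.16 with the scrambled hairpin, and 906 ± 79.4 with overexpression and 829.8 ± 10 with the empty vector (SD, n = 3 each). In Ndufs1, Ndufs3, Ndufs8 and Ndufv1 every library of both hairpin groups lay below every library of both vector groups.

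Genes that work with the complexes but fall outside the naming rule were described from lists of 46 genes, of which 44 were measured. They went both ways in each comparison. With overexpression 10 rose and 13 fell (median -0.03), and with knockdown 14 rose and 11 fell (median 0.00). Taken in both directions, these counts stand near the shares of all genes past the threshold, 51.4% with overexpression and 49.7% with knockdown. By direction, 31.0% of all genes rose and 20.3% fell with overexpression, and 18.7% rose and 31.0% fell with knockdown. The balance of the lists was thus the other way in both comparisons, without a test between them. Of 10 further assembly factors of complex I, 2 rose and 4 fell with overexpression, and 4 rose and 4 fell with knockdown. Acad9, a flavoprotein of the complex that assembles the membrane arm, had 5.92, 6.00 and 5.42 RPKM with overexpression against 7.64, 8.03 and 7.55 with the empty vector (log2 fold change -0.37, adjusted p = 1.42e-05), and 7.39, 7.72 and 7.57 with knockdown against 6.09, 6.30 and 5.90 with the scrambled hairpin (0.27, adjusted p = 0.000241). Tmem126b fell with overexpression (-0.38, adjusted p = 0.00012). With knockdown Dmac2, named for the distal membrane arm, fell by 0.53 (adjusted p = 2.41e-06) and Tmem186 rose by 0.40 (adjusted p = 2.25e-05) on the log2 scale.

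Of 4 assembly factors of complex II, Sdhaf1 rose (0.19, adjusted p = 0.0086) and Sdhaf3 fell (-0.19, adjusted p = 0.00745) with overexpression, and 0 passed with knockdown. Of 2 measured for complex III, 0 passed with overexpression, and with knockdown Bcs1l, which inserts the Rieske protein, fell (-0.20, adjusted p = 0.00377) and Ttc19 rose (0.13, adjusted p = 0.0168). Of 4 genes around the ATP synthase, Atpaf2, a chaperone of the alpha subunit, had 30.6, 30.9 and 29.7 RPKM with overexpression against 41.8, 42.6 and 40.9 with the empty vector (-0.45, adjusted p = 2.76e-07), and rose by 0.15 with knockdown (adjusted p = 0.00266). Atpif1, the inhibitor protein that stops the enzyme from consuming ATP, rose in both (0.32, adjusted p = 0.000144, with overexpression; 0.18, adjusted p = 0.00866, with knockdown).

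Of 12 genes for coenzyme Q, the electron carrier between the complexes, 2 rose and 4 fell with overexpression, and 4 rose and 5 fell with knockdown. Coq10a, a coenzyme Q-binding protein, rose by 0.43 with overexpression (adjusted p = 2.44e-05) and fell with knockdown (-0.38, adjusted p = 0.000111). Coq5, a methyltransferase of the synthesis, fell with overexpression (-0.35, adjusted p = 1.04e-05). Coq8a, an atypical kinase of the pathway, had 9.59, 9.85 and 10.1 RPKM with knockdown against 16.1, 16.2 and 14.7 with the scrambled hairpin (-0.62, adjusted p = 9.28e-06), and Pdss1, which makes the isoprenoid tail, rose by 0.46 (adjusted p = 3.45e-05). Cytochrome c (Cycs) rose in both comparisons (0.31, adjusted p = 0.0109, with overexpression; 0.29, adjusted p = 0.0162, with knockdown).

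Of 7 other dehydrogenases that feed coenzyme Q, 2 rose and 3 fell with overexpression. The sulfide oxidase Sqor had 26.0, 24.3 and 23.5 RPKM with overexpression against 37.4, 39 and 36.9 with the empty vector (-0.60, adjusted p = 2.23e-07), while Etfdh, which takes electrons from fatty acid oxidation, rose with overexpression (0.28, adjusted p = 2.16e-05) and with knockdown (0.22, adjusted p = 0.000176). Gpd2, the mitochondrial glycerol-3-phosphate dehydrogenase, fell with knockdown (-0.19, adjusted p = 0.00466). Of 3 carriers of adenine nucleotides and phosphate, 0 passed with overexpression, and Slc25a5 rose with knockdown (0.25, adjusted p = 0.00613).

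The treatment of reads with several matches and the strand setting of the counting are not given in the sources used here. Of 78 members 17 have a processed pseudogene or other copy that is at least 95% identical over at least 100 bases, Uqcr11, Uqcrb, Atp5c1 and Atp5g1 among them, so their levels are uncertain. Of these 17, 6 rose and 0 fell with overexpression (median 0.13), against 24 and 3 of the 61 without such a copy (median 0.14). Exons of 5 members overlap those of another gene on the same strand, such as Ndufb9 with Gm49356, and those of 24 overlap a gene on the other strand, such as Ndufs1 with Eef1b2, Ndufaf3 with Impdh2 and Uqcrc2 with Pdzd9. Reads in such stretches cannot be assigned to 1 of the genes without strand.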

How the data were processed

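The authors deposited a table of RPKM values, divided by 1000, for 28948 mouse genes in 12 libraries. Per the submitters' processing notes, HISAT2 2.1.0 and featureCounts of Subread 1.5.3 were used with mm10, and how RPKM was made is not given in the sources used here. Values were multiplied by 1000, and 28896 gene identifiers were matched to GENCODE M21. From the steps between low values, 98.67% to 98.92% of values came out as whole reads (within 0.05 of a read), and a single read per kilobase equals 0.026 to 0.0284 RPKM. Genes reaching 1 RPKM in 3 or more libraries were tested on log2(RPKM + 1) with limma 3.58.1 (R 4.3.3; 1 model of all 4 groups, moderated variance with trend) and Benjamini-Hochberg adjustment over all 11245 genes. The pseudocount understates changes of low genes. Fold changes are on this scale, SEs are of the log2 fold change, and SDs are over 3 libraries. Figures and summaries used Python 3.11.15.

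Overexpression was compared with empty vector, knockdown with scrambled hairpin, both responses with each other, and the controls with each other. Besides the core subunits of complex I (1 is not reported here), the Sdh genes, Cyc1, Uqcrfs1, the c ring genes and Ndufa4, the text names up to 4 members per class and comparison with the smallest adjusted p among those called, the highest and lowest member of each class, and up to 2 called genes per list of partner genes. Members whose calls changed when 1 library was left out, and Acad9 and Coq10a in their other comparison, were named after their values were seen. Members and lists were chosen with earlier results of these data known. Alternatives were other pseudocounts (0.1 and 5), filters, scalings, variance models, voom on the recovered reads, a threshold of 0.01, the replicate number as a block, only the libraries compared, and leaving out each library. The fit was tested on simulated data. Promoters are RefSeq's for GRCm38.p6. Copies were found by aligning member transcripts to annotated pseudogenes.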

Additional observations from a re-analysis of the deposited data

How the results depend on the processing

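With overexpression, 33 members passed (30 higher, 3 lower). The median of all members kept its sign in every alternative tried (0.08 to 0.18), as did that of subunits (0.10 to 0.21). Leaving out 1 library gave 27 to 50 calls, of which 25 to 48 higher, the largest counts without overexpression replicate 3. Without that replicate 4020 of all genes were higher and 2201 lower, against 3490 and 2285 in the full fit. With knockdown, 19 passed (5 higher, 14 lower). Leaving out 1 library gave 14 to 29 calls, 2 to 10 higher and 12 to 22 lower. Calls numbered 29 with only the libraries compared and 12 at a threshold of 0.01. Higher calls with knockdown numbered 13 with median-ratio scaling (and 9 lower), 8 with quantile normalization and 8 with only the libraries compared, 2 with no filter, 2 at 0.01 and 1 with TPM. Over all genes the higher calls with knockdown numbered 2783 with median-ratio scaling and 1611 with TPM, against 2100 in the full fit. For the overexpression response minus the knockdown response, lower calls (2) numbered 6 with median-ratio scaling, 4 with quantile normalization, 1 with no filter, 1 with TPM, 0 at 0.01 and 1 to 5 without 1 library. In that difference the median of subunits exceeded that of assembly factors by 0.19, against 0.09 for genes of mean RPKM of at least 5, 0.26 with quantile normalization and 0.10 to 0.21 without 1 library. Between the controls (17 higher, 27 lower) TPM gave 16 lower and 23 higher, and median-ratio scaling 42 lower and 11 higher. The cause of these moves was not tested. Calls held under all alternatives but the stricter threshold for 24 of 33 members with overexpression, 10 of 19 with knockdown, 22 of 33 for the difference and 27 of 44 between the controls. The knockdown medians of all members and of subunits lay near 0 and changed sign with median-ratio scaling (0.02 and 0.03, beside 0.00 over all genes). Between the controls the median of all members (-0.05) changed sign with TPM (0.03). The assembly factor median with overexpression was -0.06 and turned to 0.02 without overexpression replicate 3.

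The replicate numbers are not stated to pair libraries. Deviations of same-numbered libraries had r of -0.013, 0.118 and 0.081 for overexpression with empty vector, against -0.141 to 0.072 for different numbers. For knockdown with scrambled hairpin r was -0.073, 0.049 and -0.059, against -0.189 to 0.237 for different numbers. The values 0.118 and 0.081 lay above those of different numbers in their comparison, so a pairing there is not settled. With the replicate number as a block 33 members passed with overexpression, 18 with knockdown (3 higher, 15 lower), 34 for the difference and 42 between the controls. The block ended the overexpression calls of Sdhb (adjusted p = 0.0526) and Ndufb10 (0.0552) and the knockdown calls of Uqcr11 (0.0602) and Atp5j (0.0541).

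Members drew at least 266 recovered reads in every library, and for the lowest of them counting error is part of the spread between libraries. Its share was not tested.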
